A study of Homo sapiens with 26 samples.

Results

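FOXA1nhaa and FOXA1rraa are variants of the forkhead transcription factor FOXA1, and their deposited lists of binding sites were compared row by row. Each row of a list is 1 called peak or a piece of 1, with coordinates in hg19, a row name and the peak caller's values. A row counted as shared when both lists held the same coordinates and the same name, and as private when only 1 list held it. The FOXA1nhaa list held 105591 rows and the FOXA1rraa list 71202 rows. Together they made 135540 distinct rows, of 335098 distinct rows in the 5 lists of the series that were used. Every protein was HALO-tagged and expressed ectopically for 48 hours in BJ, a human fibroblast line established from foreskin, and was precipitated with an antibody to the tag after formaldehyde fixation. The labels give 2 ChIP and 2 input libraries for each construct, but there was 1 list per construct. Differences between constructs therefore had no replicate error, no test was possible, and intervals are 95% Wilson intervals that cover counting error over rows only. The FOXA1, FOXA1dbd and HNF4A lists of the same cells served as references. Peak lists carry no expression values, so fibroblast markers could not be checked, and the read depth behind the rows is unknown.

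FOXA1 belongs to the forkhead family, whose winged-helix domain reads a short core sequence through base contacts and holds the DNA backbone through further contacts. It is known as a pioneer factor, a protein that reaches its sites in compacted chromatin, and in liver, breast and prostate it opens enhancers for nuclear receptors. In work on FOXA1 the name NHAA stands for the exchange of an asparagine and a histidine that contact bases for alanines. RRAA stands there for the exchange of a pair of arginines that contact the backbone. The labels of this series do not spell out the names.

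The rows fell into 4 classes, and sequences from each are shown first because the classes differed in the letters at their centres. The classes were the shared rows, the rows only in the FOXA1nhaa list, the rows of the FOXA1rraa list that were also rows of the FOXA1 list (here called FOXA1-list rows), and the remaining rows only in the FOXA1rraa list, all of which carried the name prefix Nonspecific_FOX. For each class the first sequence is 120 bases around the summit of the row with the highest fold enrichment. The second, given for the shared rows and both private classes of the FOXA1rraa list, is the same stretch of the row with the highest fold among those with a forkhead core starting within 25 bp of the summit. The forkhead core is TGTTTAC or TATTTAC on either strand. Capitals mark this core, and in the EDARADD, MYO16 and STX8 windows, which hold no core, those among the 6 leading 6-mers of the class that occur there. Sequences are from GRCh37, plus strand.
Shared, intron of EDARADD, chr1:236656788-236656907: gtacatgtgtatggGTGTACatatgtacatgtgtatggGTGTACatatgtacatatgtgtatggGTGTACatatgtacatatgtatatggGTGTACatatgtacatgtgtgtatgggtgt
Shared, intron of LRMDA, chr10:77499609-77499728: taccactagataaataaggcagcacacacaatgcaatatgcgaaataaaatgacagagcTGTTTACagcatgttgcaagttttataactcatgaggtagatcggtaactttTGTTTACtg
FOXA1nhaa only, intron of MYO16, chr13:109406463-109406582: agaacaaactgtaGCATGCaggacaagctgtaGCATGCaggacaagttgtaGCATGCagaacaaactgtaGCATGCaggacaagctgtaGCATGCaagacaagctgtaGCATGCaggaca
FOXA1-list row, intron of STX8, chr17:9213228-9213347: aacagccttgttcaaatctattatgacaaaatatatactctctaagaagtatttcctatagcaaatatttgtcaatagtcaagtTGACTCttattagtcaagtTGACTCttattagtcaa
FOXA1-list row, intron of NFIB, chr9:14397249-14397368: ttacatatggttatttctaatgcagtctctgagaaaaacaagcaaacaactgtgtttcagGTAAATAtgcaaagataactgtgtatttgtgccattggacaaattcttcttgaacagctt
Nonspecific_FOX, intron of the noncoding gene LINC02997, chr5:66828575-66828694: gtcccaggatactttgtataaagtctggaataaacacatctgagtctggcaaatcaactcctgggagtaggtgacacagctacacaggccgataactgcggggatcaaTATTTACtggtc
Nonspecific_FOX, intron of CABIN1, chr22:24447066-24447185: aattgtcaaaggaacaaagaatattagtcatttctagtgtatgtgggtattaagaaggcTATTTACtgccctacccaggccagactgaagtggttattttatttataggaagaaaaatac

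The strongest rows of the first 2 classes lay on short tandem repeats. The EDARADD row had a fold of 31.3 and its window repeats a unit that holds GTGTAC, while the MYO16 row had a fold of 26.6 and its window repeats a unit that holds GCATGC. The STX8 row had a fold of 24.2 and no forkhead core in its central 200 bp. The end of its window also repeats a unit in tandem, and that unit holds the marked TGACTC. The strongest Nonspecific_FOX row, in LINC02997, had a fold of 9.67 and a core that started 48 bp after the summit. Among the rows chosen for a core at the summit, the fold was 19.2 in LRMDA, 17.7 in NFIB, a nuclear factor I gene, and 8.39 in CABIN1, which encodes a calcineurin-binding protein. The core at the summit was TGTTTAC in LRMDA and TATTTAC in NFIB and CABIN1, on the minus strand in NFIB. The next strongest shared row, with a fold of 31.1, lay 217 bp from the transcription start of LCT, the lactase gene. The next strongest FOXA1nhaa-only rows lay between genes near FAN1 (fold 24.1) and within ZEB2 (fold 21.5), a zinc-finger repressor of epithelial genes. The row in ZEB2 lay in an exon, but another annotated gene overlaps there, and which gene the exon belongs to was not resolved.

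Shared rows numbered 41253, which was 39.1% (38.8 to 39.4) of the FOXA1nhaa list and 57.9% (57.6 to 58.3) of the FOXA1rraa list. The FOXA1nhaa list had 64338 rows of its own, 60.9% of it. The FOXA1rraa list had 23216 FOXA1-list rows, 32.6% (32.3 to 33.0) of it, and 6733 Nonspecific_FOX rows, 9.46% (9.24 to 9.67). No private row of either list overlapped any row of the other list, even by 1 bp. All 41253 shared rows had identical score, fold, p-value, q-value and summit in both lists, so that each shared row holds 1 measurement and says nothing of relative strength in the 2 constructs. Such rows were not measured separately in the 2 constructs, and which libraries gave their values is not stated. The files do not show whether a shared row was bound by both constructs or copied from 1 list into the other. The same holds for the FOXA1-list rows, whose score was that of the FOXA1 list in every case. Fold and summit of shared and FOXA1-list rows are thus not separate measurements of FOXA1rraa. Class differences below describe rows of the lists, not measured differences in binding between the constructs.

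The row names carry a prefix before the peak number, and prefixes may mark separate peak calls. Medians and quartiles of fold were therefore compared between classes only within the same prefix. The strongest rows named above were picked whatever their prefix. The EDARADD and LCT rows had FOXA1_5 and the MYO16, FAN1 and ZEB2 rows FOXA1_3, so their folds are not like measures. Of the shared rows, 37045 (89.8%) had the prefix FOXA1_3, 3964 had FOXA1_5, 237 had FOXA1_4 and 7 had FOXA1_6. Of the FOXA1nhaa-only rows, 63351 (98.5%) had FOXA1_3, 767 had FOXA1_4 and 220 had FOXA1_5. The prefix FOXA1_5 was thus mostly a prefix of shared rows. Every FOXA1-list row had the prefix HALOIP1, and 603 of them came from peak names that occurred on several rows.

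Within FOXA1_3 the shared rows had a median fold of 5.98 (quartiles 4.94 and 7.59, highest 21.6), and the FOXA1nhaa-only rows a median of 5.61 (quartiles 4.83 and 6.72, highest 26.6). The ranges of the classes overlapped almost wholly. Shared rows were wider, with a median of 413 bp against 333 bp. Within FOXA1_5 the medians were 7.07 for shared and 4.48 for FOXA1nhaa-only rows, and within FOXA1_4 they were 4.92 and 4.84. The FOXA1-list rows had a median fold of 6.22 and the Nonspecific_FOX rows one of 3.95, with the highest at 9.67, but these prefixes had no counterpart in the FOXA1nhaa list to be compared with.

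**Figure D1:**
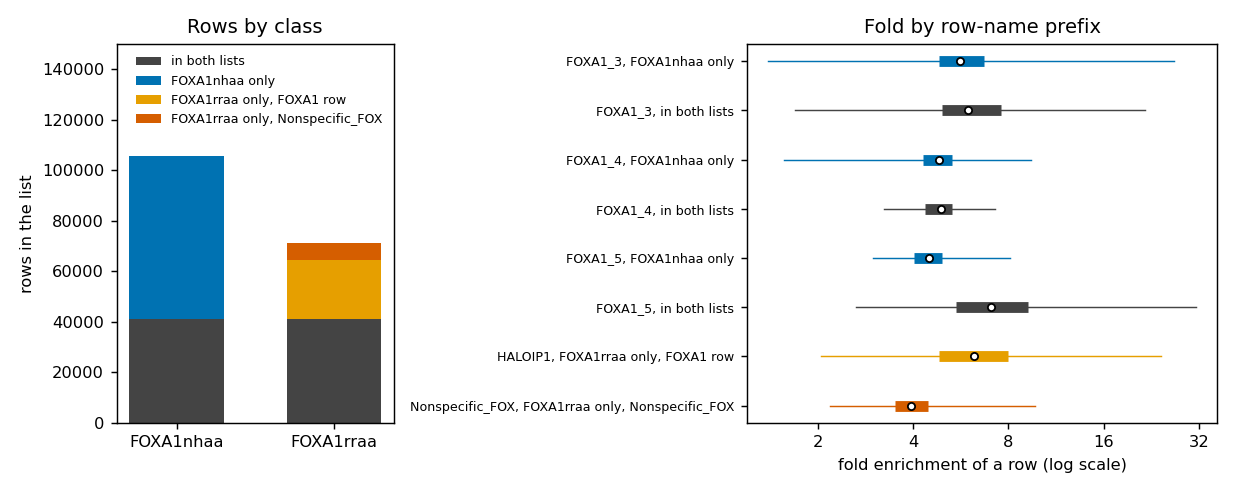
Left, number of rows in the FOXA1nhaa and FOXA1rraa lists by class; the 41253 shared rows stand at the base of both bars. Right, fold enrichment (log axis) of rows by name prefix and class for groups of at least 200 rows, with the thin line from lowest to highest, the thick line between quartiles and the circle at the median; within FOXA1_3 the medians are 5.98 for shared and 5.61 for FOXA1nhaa-only rows, with ranges that overlap almost wholly, and values under different prefixes may come from different peak calls.

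Whether a FOXA1nhaa row was shared went with the presence of a FOXA1 row much more than with its own fold. Of the 57471 FOXA1_3 rows that overlapped a row of the FOXA1 list, 60.5% (60.1 to 60.9) were shared. Of the 42925 that did not, 5.34% (5.14 to 5.56) were shared. Split by fold into quintiles, 35.2% of FOXA1_3 rows were shared in the lowest quintile, then 30.6%, 32.9% and 35.8%, and 49.97% in the highest, where the fold was at least 7.41. Among the FOXA1nhaa-only rows, 33.9% overlapped a FOXA1 row in the lowest quintile, compared with 44.2% in the highest. Among the shared rows this share lay between 91.7% and 95.7% in every quintile.

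**Figure D2:**
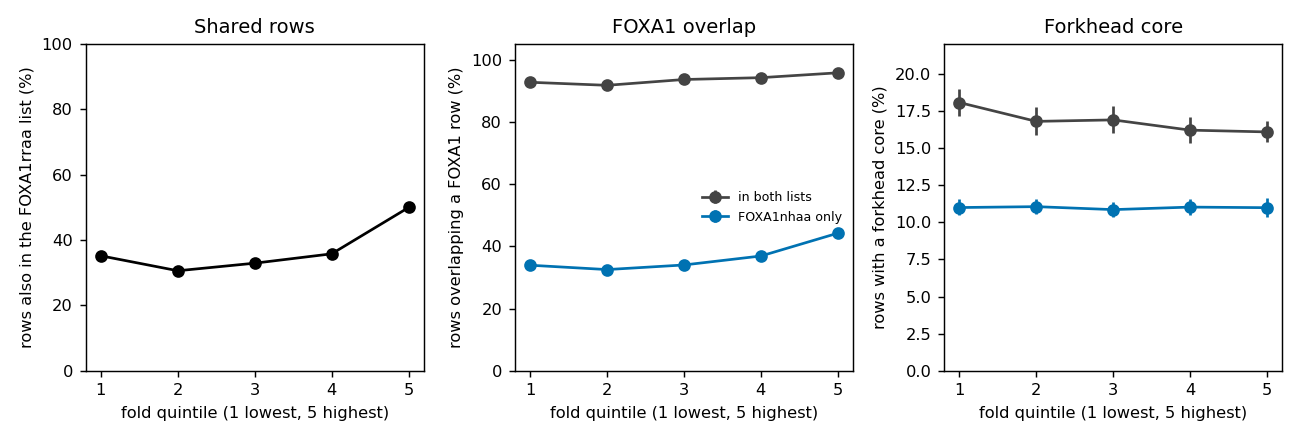
FOXA1_3 rows of the FOXA1nhaa list in quintiles of fold enrichment, with 95% Wilson intervals; left, percent also in the FOXA1rraa list, middle, percent overlapping a FOXA1 row, right, percent with a forkhead core in the central 200 bp. The shared proportion goes from 35.2% in the lowest quintile to 49.97% in the highest, and the gap in core frequency between shared and FOXA1nhaa-only rows is present in all quintiles.

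Over all prefixes, 93.5% (93.3 to 93.8) of shared rows and 35.8% (35.5 to 36.2) of FOXA1nhaa-only rows overlapped a FOXA1 row. The FOXA1-list rows did so by identity, and none of the 6733 Nonspecific_FOX rows did. Only rows identical to FOXA1 rows had been set apart from that class, which does not account for the absence of partial overlaps. How the deposited list came to hold no such rows was not tested. The highest-scoring FOXA1 row that a row met had a median score of 199 for shared rows and 119 for FOXA1nhaa-only rows. The FOXA1-list rows had a median score of 144 of their own. These values are not like measures, since a wider row can meet several FOXA1 rows and shared rows were wider. The FOXA1dbd list overlapped 30.2% of shared rows, 21.3% of FOXA1-list rows, 4.89% of FOXA1nhaa-only rows and 0.564% of Nonspecific_FOX rows. Overlap with HNF4A, an unrelated nuclear receptor, was 2.42%, 1.65%, 1.59% and 1.19% in the same order.

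The forkhead core was found in the central 200 bp of 17.6% (17.3 to 18.0) of shared rows and of 11.03% (10.8 to 11.3) of FOXA1nhaa-only rows. The FOXA1-list rows held it in 22.5% (21.96 to 23.03) and the Nonspecific_FOX rows in 26.5% (25.4 to 27.5). Of all 200 bp tiles of the reference genome without unknown bases, 7.29% held it. Since the rows were rich in A and T, each class was also set against tiles of equal GC. The core was then 1.695 times (1.66 to 1.73) as frequent as in tiles for shared rows and 1.15 times (1.13 to 1.18) for FOXA1nhaa-only rows. It was 2.03 times (1.98 to 2.07) as frequent for FOXA1-list rows and 2.56 times (2.46 to 2.66) for Nonspecific_FOX rows. The order of the 4 classes was the same for TGTTTAC alone, at 1.95, 1.27, 2.13 and 3.05 times, and for TATTTAC alone, at 1.60, 1.09, 2.05 and 2.42 times. The reversed letters CATTTGT or CATTTAT, which are no known forkhead core, lay between 0.968 and 1.12 times the tiles in all 4 classes.

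The share of rows with a core at the summit had the same order of classes. A core started within 25 bp of the summit in 5.57% of shared rows, 3.05% of FOXA1nhaa-only rows (1963 rows), 7.18% of FOXA1-list rows whose summit lay inside the row, and 9.12% of Nonspecific_FOX rows. In 50 bp steps, the Nonspecific_FOX rows rose from 2.14 cores per 100 rows at 1000 bp before the centre to 9.22 just after it. FOXA1nhaa-only rows went from 2.03 to 3.07, and shared rows from 2.29 to 5.50. Windows with 2 or more cores made up 1.83% of shared, 0.748% of FOXA1nhaa-only, 2.89% of FOXA1-list and 3.89% of Nonspecific_FOX rows. Within FOXA1_3 the core was not more frequent in rows of higher fold. Among shared FOXA1_3 rows the core frequency was 18.1% in the lowest fold quintile and 16.1% in the highest, and among FOXA1nhaa-only rows 10.99% and 10.98%. Among FOXA1_3 rows that overlapped a FOXA1 row, 16.6% of shared and 11.5% of FOXA1nhaa-only rows held the core, and among those that did not, 19.1% and 10.7%, so the gap was present in both and wider outside FOXA1 rows.

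**Figure D3:**
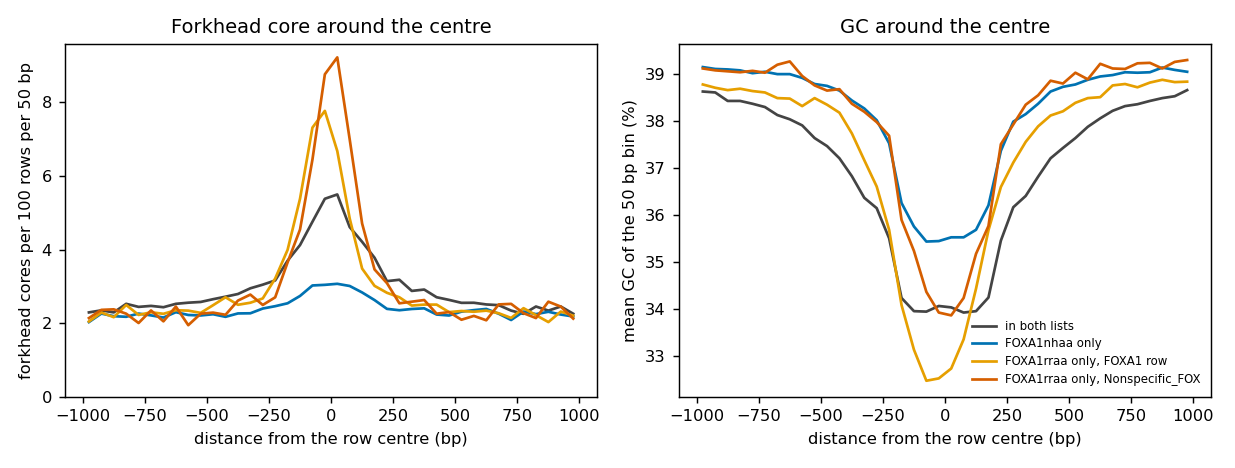
Forkhead cores per 100 rows (left) and mean GC percent (right) in 50 bp bins from 1000 bp before to 1000 bp after the row centre, which is the summit where it lies inside the row. The core frequency peaks at the centre in all classes, highest for Nonspecific_FOX rows at 9.22 and lowest for FOXA1nhaa-only rows at 3.07, and GC is lower around the centre than at the edges in every class.

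Other motifs divided the classes differently. AP-1, the dimer of Fos and Jun proteins that marks many fibroblast enhancers, reads TGACTCA or TGAGTCA. The search used the looser TGANTCA, which also counts TGAATCA and TGATTCA, so its shares are not of AP-1 sites alone. TGANTCA was in 17.1% (16.7 to 17.5) of shared rows, 12.3% (12.1 to 12.6) of FOXA1nhaa-only rows, 15.0% (14.6 to 15.5) of FOXA1-list rows and 13.3% (12.5 to 14.1) of Nonspecific_FOX rows, against 6.27% of all tiles. Against tiles of equal GC it was 2.60, 1.85, 2.32 and 2.02 times as frequent. The ratio of TGANTCA was thus above that of the forkhead core in every class but the Nonspecific_FOX rows. CATTCC, read by the TEAD factors of the Hippo pathway, was 1.30, 1.21, 1.27 and 1.37 times as frequent as in tiles. AACAAT, read by SOX factors, was 1.21, 1.18, 1.13 and 1.21 times as frequent. TGTGGTT, read by RUNX factors, was 1.18, 1.00, 1.28 and 1.29 times as frequent, and the FOXA1nhaa-only ratio changed side of 1 in a central window of 100 bp, where it was 1.03. TTGCNNAA, of the CEBP factors, was 1.09, 1.14, 1.06 and 0.923 times as frequent. AGATAA, of the GATA factors, was below the tiles in all classes, at 0.863, 0.934, 0.887 and 0.887 times. Each motif was searched on both strands, and a match is a description of the letters, not of a bound factor. The ETS motif CCGGAAGT, the palindromic NFI motif and the HNF4 motif CAAAGTCCA were each in at most 0.223% of the rows of any class.

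**Figure D4:**
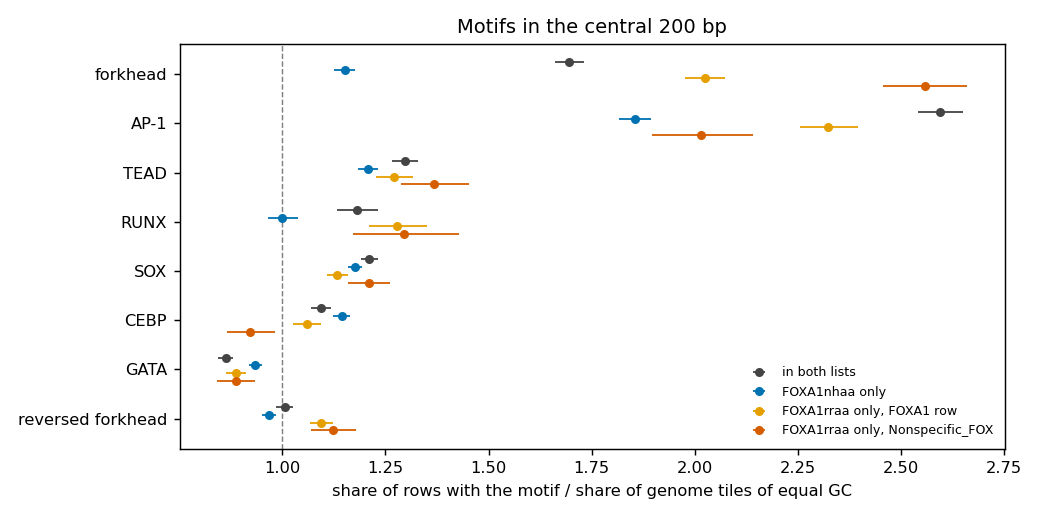
Share of rows with a motif in the central 200 bp divided by the share of reference tiles of equal GC, by class, with 95% Wilson intervals; the dashed line at 1 is the tile level. Forkhead separates the classes most, from 1.15 in FOXA1nhaa-only rows to 2.56 in Nonspecific_FOX rows, and AP-1, searched as TGANTCA, is at least 1.85 in all 4.

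A count of all 6-mers in the central 200 bp, taken with both strands together and against tiles of equal GC, gave the classes different leading sequences. The FOXA1nhaa-only rows were led by GCATGC, in 5.46% of rows (2.13 times the tiles), AGCTGC (2.12 times), CAGCTG (2.10 times), AGCAGC (2.04 times) and GCAGCA (2.02 times). The Nonspecific_FOX rows were led by GTACAC, in 12.6% of rows (2.62 times), then ACACAC (2.58 times), TACACA (2.56 times), ATACAC (2.52 times), GTAAAC, which is part of the forkhead core (2.41 times), and GTCAAC (2.37 times). The FOXA1-list rows were led by ACACAC (2.35 times) and GTACAC (2.31 times), and the last of their 6 leading 6-mers was GAGTCA (2.004 times), the one marked in the STX8 window. Shared rows were led by ACAAGC (2.03 times), GAGTCA, which is most of the AP-1 motif (2 times), and GTACAC (1.96 times). GCAGCA, at 2.02 times in FOXA1nhaa-only rows, stood at 0.877 times in FOXA1-list rows and 0.942 times in Nonspecific_FOX rows. GTACAC stood at 1.21 times in FOXA1nhaa-only rows. Among 8-mers, the AP-1 sequence ATGACTCA led the shared rows (4.54 times), GAAGCAGC the FOXA1nhaa-only rows (3.36 times) and GTACACAC both private classes of the FOXA1rraa list (5.07 times in FOXA1-list and 5.59 times in Nonspecific_FOX rows).

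The position of some leading 6-mers was then examined by setting the central 50 bp against 50 bp flanks 500 bp away. They were picked after their rank was known, so the values are a description. GTAAAC was 3.72 times as frequent at the centre as in the flanks in Nonspecific_FOX rows, 2.54 times in FOXA1-list rows, 1.98 times in shared rows and 1.27 times in FOXA1nhaa-only rows. GCATGC ran in the opposite order, at 0.851, 0.885, 1.52 and 1.93 times. CAGCTG was 1.697 times as frequent at the centre in FOXA1nhaa-only rows and 0.842 times in FOXA1-list rows. ACAAGC was central in all, at 2.32 times in shared, 2.38 times in FOXA1nhaa-only, 1.71 times in FOXA1-list and 1.72 times in Nonspecific_FOX rows. These counts used rows with the summit inside the row and no short repeat in the window. The ratios were not adjusted for GC, which was lower at the centre than in the flanks and unequally so. Over all FOXA1-list rows mean GC was 32.5% just before the centre and 38.4% at 500 bp after it. Over FOXA1nhaa-only rows it was 35.45% and 38.8%.

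Short repeats, defined as a 6-mer found at least 4 times in the central 200 bp, were in 11.5% (11.2 to 11.8) of shared rows and 7.88% (7.67 to 8.09) of FOXA1nhaa-only rows. They were in 20.1% of FOXA1-list rows and 18.9% of Nonspecific_FOX rows, and in 18.7% of reference tiles. Rows were also ranked by fold within each class, whatever their prefix, so the top rows of different classes may come from different peak calls. Of the 100 shared rows of highest fold 53 had such a repeat, as did 14 of the 100 FOXA1nhaa-only rows, 27 of the FOXA1-list rows and 16 of the Nonspecific_FOX rows. Without repeat windows GTACAC was still 2.54 times the tiles in Nonspecific_FOX rows and GCATGC 2.15 times in FOXA1nhaa-only rows. ACACAC was lower without them, at 2.01 times in FOXA1-list and 2.266 times in Nonspecific_FOX rows.

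The median GC of the central 200 bp was 33.5% in shared rows, 35% in FOXA1nhaa-only rows, 32.5% in FOXA1-list rows and 34% in Nonspecific_FOX rows, compared with 40% in tiles. Windows dense in CpG were rare, with 10 or more CpG in at most 0.108% of the windows of any class. Transcription starts lay within 1 kb of 9.22% (8.946 to 9.504) of shared rows, 8.14% (7.93 to 8.35) of FOXA1nhaa-only rows, 8.31% (7.97 to 8.68) of FOXA1-list rows and 6.27% (5.71 to 6.87) of Nonspecific_FOX rows. Such positions make up 7.50% of the reference. Most rows lay in introns, from 62.0% of Nonspecific_FOX to 65.8% of shared rows, against 52.3% of the reference. Space between genes held 18.7% of shared, 21.99% of FOXA1-list, 24.3% of FOXA1nhaa-only and 27.6% of Nonspecific_FOX rows, against 36.9% of the reference. The core frequency was 17.6% at starts and 18.2% between genes for shared rows, 10.7% and 11.4% for FOXA1nhaa-only rows, 21.97% and 21.4% for FOXA1-list rows, and 29.9% and 26.3% for Nonspecific_FOX rows. Overlap with FOXA1 among FOXA1nhaa-only rows was 41.8% at starts and 28.6% between genes.

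In windows of 1 Mb, all classes were densest in windows of middling GC. Shared rows numbered 11.3 per Mb in the quintile of windows with the lowest GC, 18.7 per Mb in the middle quintile and 9.11 per Mb in the quintile with the highest GC. FOXA1nhaa-only rows numbered 19.1, 28.3 and 14.2 per Mb, FOXA1-list rows 6.52, 10.3 and 5.59 per Mb, and Nonspecific_FOX rows 2.01, 2.92 and 1.66 per Mb. The shared proportion of the FOXA1nhaa list stayed between 37.3% and 40.1% across the GC quintiles. It was lower where genes were absent, at 31.8% in the 352 windows without a protein-coding gene, 37.4% with 1 to 3 genes, 40.5% with 4 to 9, 40.99% with 10 to 19 and 38.5% with 20 or more. Gene deserts, stretches of at least 500 kb between protein-coding genes that cover 28.6% of the reference, held 13.9% of shared rows, 15.6% of FOXA1-list rows, 18.2% of FOXA1nhaa-only rows and 20.1% of Nonspecific_FOX rows. Rows in deserts had the core as often as the rest of their class, for example 17.8% of shared and 11.2% of FOXA1nhaa-only rows there.

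Chromosome X was sparse in rows of all classes. It had 1.42 shared rows per Mb, 3.67 FOXA1nhaa-only rows, 2.51 FOXA1-list rows and 0.804 Nonspecific_FOX rows per Mb, compared with 14.5, 22.6, 8.14 and 2.36 per Mb over all windows. Only 27.9% of the FOXA1nhaa rows of chromosome X were shared. Chromosome Y was sparser still, at 0.939, 1.83, 0.537 and 0.402 rows per Mb in the same order of classes. Densities were not adjusted for the copy number of a chromosome. Chromosome 19, rich in genes and in GC, had 3.45 shared and 6.28 FOXA1nhaa-only rows per Mb, and 35.4% of its FOXA1nhaa rows were shared. Chromosome 6 was the densest, with 19.3 shared and 29.1 FOXA1nhaa-only rows per Mb. Among the 1751 windows with at least 30 rows, the window at chr3:48000001-49000000, which holds MAP4 and PLXNB1, had the highest shared proportion, 21 of 37 rows. The window at chr12:41000001-42000000, with the neural adhesion gene CNTN1, had the highest FOXA1nhaa-only proportion, 24 of 30 rows. FOXA1-list rows made up 13 of 33 rows at chr20:25000001-26000000, and Nonspecific_FOX rows 10 of 35 at chr13:64000001-65000000. Of all 135540 rows, 41253 were shared, 64338 FOXA1nhaa-only, 23216 FOXA1-list and 6733 Nonspecific_FOX rows. The windows named are the extremes among those searched.

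Private rows did not overlap the other list, but rows of every class lay nearer to other rows than grid positions did. The nearest shared row was a median of 14762 bp from a FOXA1nhaa-only row, 11608 bp from a FOXA1-list row and 16868 bp from a Nonspecific_FOX row. From a grid of positions every 10 kb it was 51347 bp away. Shared rows belong to both lists, and they lay a median of 9295 bp from the nearest other shared row. FOXA1nhaa-only rows lay 9065 bp from the nearest other row of their class, so the nearness was not particular to the other list. A FOXA1nhaa-only row lay within 1 kb of 5.18% of Nonspecific_FOX rows and 5.02% of FOXA1-list rows, against 4.31% of grid positions. Private rows cannot overlap the other list while grid positions can fall inside a row, so these shares within 1 kb are not comparable with that of the grid. Within 10 kb the shares were 49.7% and 55.3%, against 31.2% of grid positions.

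Genes were counted as having rows of a class when a row centre lay in the gene or within 10 kb of it. Of 20136 protein-coding genes, 43.6% had a shared row, 54.3% a FOXA1nhaa-only row, 36.4% a FOXA1-list row and 15.9% a Nonspecific_FOX row. No row of any class was found at 6813 genes. Rows of a single class were found at 2391 genes for FOXA1nhaa-only rows, 916 for shared rows, 710 for FOXA1-list rows and 211 for Nonspecific_FOX rows. Larger genes have more room for rows, so densities per 100 kb of gene and flanks are given for comparisons between genes, and the same density over all protein-coding genes was 2.02 for shared, 2.78 for FOXA1nhaa-only, 1.08 for FOXA1-list and 0.268 for Nonspecific_FOX rows.

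The genes with the densest rows of a class were taken from the 2996 genes of at least 50 kb with at least 10 rows. For shared rows these included ARID5B, a chromatin regulator of mesenchymal and fat cells, with 44 shared and 13 FOXA1nhaa-only rows (20.4 shared rows per 100 kb). HIF1A, the oxygen-regulated transcription factor, had 14 shared and 2 FOXA1nhaa-only rows, PICALM, a clathrin assembly gene, 24 and 14, and the xylosyltransferase gene GXYLT1 14 and 1. None of these 4 genes had a Nonspecific_FOX row, and each had between 2 and 6 FOXA1-list rows. For FOXA1nhaa-only rows the densest was COL5A2, a fibrillar collagen gene, with 34 FOXA1nhaa-only and 24 shared rows (15.9 FOXA1nhaa-only rows per 100 kb). CPEB2, ZNF451, the importin gene TNPO1 and the mitochondrial elongation factor gene GFM1 followed, with between 10 and 17 FOXA1nhaa-only rows each. GFM1 had no row private to the FOXA1rraa list.

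For FOXA1-list rows the densest gene was DNAJB14, a co-chaperone gene, with 9 FOXA1-list and 6 FOXA1nhaa-only rows (12.8 FOXA1-list rows per 100 kb). PLOD2, which encodes a collagen lysyl hydroxylase, had 18 FOXA1-list, 15 shared and 10 FOXA1nhaa-only rows. WDR26, SELENOF and UBL3 had 8, 8 and 11 FOXA1-list rows. For Nonspecific_FOX rows the densest was RND3, with 5 of 24 rows (5.51 per 100 kb). GKAP1 had 6 of 10, PSTPIP2 4 of 16, FBXO38 3 of 16 and TFB1M 3 of 14. None of the genes named here for their density had rows of only 1 class. The filter of at least 10 rows forced this for DNAJB14, WDR26, SELENOF and all the Nonspecific_FOX genes, which had fewer rows of their class.

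Gene lists were described by the number of members with a row, beside the 43.6%, 54.3%, 36.4% and 15.9% over all genes in the order shared, FOXA1nhaa-only, FOXA1-list and Nonspecific_FOX. In the TGF-β pathway, a main inducer of matrix production in fibroblasts, 17, 16, 13 and 8 of 25 genes had a row, with a median gene length of 52.3 kb against 27.2 kb over all genes. SMURF2, the ubiquitin ligase that restrains receptors and SMADs, had 12 shared and 15 FOXA1nhaa-only rows, 9 FOXA1-list rows and 2 Nonspecific_FOX rows. LTBP1, which tethers latent TGF-β to the matrix, had 11, 21, 4 and 1, and SMAD2, a signal transducer, 8, 13, 2 and 0. The ligand gene TGFB1 had 1 row in all, a Nonspecific_FOX row, and TGFB3 had 1 shared row.

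Among transcription factors of fibroblasts, with a median gene length of 99.98 kb, 17, 14, 12 and 11 of 24 genes had a row. Shared rows thus reached 17 of these genes and FOXA1nhaa-only rows 14, and in the TGF-β list 17 and 16, while over all genes FOXA1nhaa-only rows reached more. These are differences of few genes in short lists of long genes, and nothing is read from them. By number of rows the order was as usual, with 152 shared and 226 FOXA1nhaa-only rows. RUNX1 had 27 shared, 35 FOXA1nhaa-only, 19 FOXA1-list and 3 Nonspecific_FOX rows over 1217 kb. TCF4 had 17, 30, 23 and 2, and GLIS3 20, 27, 5 and 5. OSR2, a short gene, had 5 shared rows and no other. Among AP-1 subunits 7, 9, 5 and 2 of 19 genes had a row. ATF2 had 11 shared, 7 FOXA1nhaa-only, 4 FOXA1-list and 1 Nonspecific_FOX row. FOS had a single FOXA1nhaa-only row, FOSL2 a single shared row and FOSB a single FOXA1-list row.

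Genes of the matrix and its receptors were more often met than the average gene and were also long. A row was found at 16, 20, 12 and 10 of 25 collagen genes, with 3.11 shared and 4.46 FOXA1nhaa-only rows per 100 kb, and at 17, 19, 15 and 9 of 25 integrin and laminin genes, with 3.38 and 4.12. COL11A1 had 16 shared, 20 FOXA1nhaa-only, 12 FOXA1-list and 2 Nonspecific_FOX rows. COL1A1, the main collagen gene of fibroblasts, had 1 row, private to FOXA1nhaa. LAMA2 had 34 shared and 34 FOXA1nhaa-only rows, and ITGB1, the common partner of many integrin α chains, 15 and 14.

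Liver and hormone-response genes are the usual targets of FOXA1 in the tissues where it is expressed. Rows were found at 7, 8, 5 and 1 of 21 liver transcription factor genes, at 8, 12, 5 and 1 of 30 genes of liver secreted proteins, and at 7, 9, 7 and 4 of 18 hormone-response genes. For liver transcription factors the density was 0.651 shared and 1.37 FOXA1nhaa-only rows per 100 kb, under the 2.02 and 2.78 of all genes. FGB, a fibrinogen chain gene, had 5 FOXA1-list rows, 1 shared row and no FOXA1nhaa-only row. AFP had 4 shared and 3 FOXA1nhaa-only rows. NR3C1, the glucocorticoid receptor gene, had 11 shared and 20 FOXA1nhaa-only rows, and ESR1, the estrogen receptor gene, 4 and 16. FOXA1 itself had a single FOXA1-list row. Among other forkhead genes 11, 15, 13 and 5 of 30 had a row, most of all FOXP1 with 22 shared and 30 FOXA1nhaa-only rows.

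Cytosolic ribosomal protein genes, which are short and active in every cell, had rows at 14, 15, 10 and 0 of 40 genes. With no Nonspecific_FOX row at these 40 genes, 21 shared and 21 FOXA1nhaa-only rows stood side by side at 1.76 per 100 kb. Olfactory receptor genes, mostly silent outside the nose and set in dense clusters, had the highest ratio of FOXA1nhaa-only to shared rows among the 13 lists. Of 415 such genes 104 had a FOXA1nhaa-only row, 32 a shared row, 28 a FOXA1-list row and 15 a Nonspecific_FOX row, with 1.31 FOXA1nhaa-only and 0.326 shared rows per 100 kb. Zinc-finger genes of chromosome 19, which carry a repressive chromatin mark in many cell types, had rows at 58, 88, 53 and 31 of 249 genes, and their densities were 0.611 shared, 0.974 FOXA1nhaa-only, 0.464 FOXA1-list and 0.248 Nonspecific_FOX rows per 100 kb. Chromosome 19 as a whole was sparser still, with 3.45 shared and 6.28 FOXA1nhaa-only rows per Mb. Of 324 genes of at least 500 kb, 312 had a FOXA1nhaa-only row and 249 a shared row. Their densities were 2.33 and 1.26 per 100 kb, and NEGR1 had the most rows, 91 FOXA1nhaa-only and 51 shared.

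**Figure D5:**
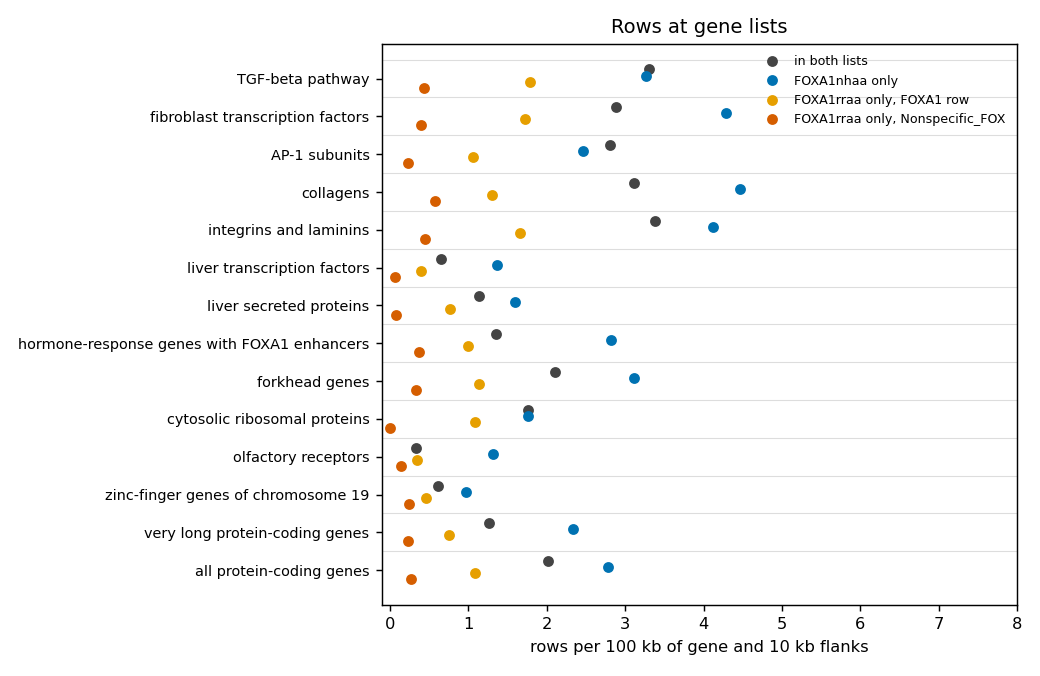
Rows per 100 kb of gene and 10 kb flanks for the 13 gene lists and all protein-coding genes, by class. FOXA1nhaa-only rows outnumber shared rows most at olfactory receptors, 1.31 against 0.326, while at TGF-β pathway genes they are 3.27 against 3.31.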

How the data were processed

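ChIP-seq rows of the FOXA1nhaa and FOXA1rraa lists were read as deposited, in hg19 per the file names, and row ends lay within the GRCh37 chromosomes. Their score, fold enrichment (a ratio to the caller's background), −log10 p-value and −log10 q-value are the authors' deposited values. The FOXA1 list holds a score only. The submitters' processing notes name MACS2 2.2.7.1, Bowtie2 2.3.4.1, Picard, GATK 4.2.6.0, bedtools 2.27.1 and deepTools 3.5.0, with no role given, and whether libraries were pooled is not given in the sources used here. Lists were matched by coordinates and name, dropping an r suffix that 880 FOXA1 names carried. The centre was the summit, or the midpoint for 3613 FOXA1-list rows whose summit lay outside the row. Motifs were searched on GRCh37 and set against all 14292991 tiles of 200 bp, and 6-mers against every 50th tile. A 6-mer was ranked where at least 5% of rows held it, and an 8-mer where at least 1% did. Genes came from GENCODE 44 lifted to GRCh37, and a gene's row lay in it or within 10 kb. The strongest 3 rows and the strongest with a core within 25 bp of the summit were named for each class. The 5 densest genes of each class were named too, and some items that these rules name are not reported here. From the gene lists the text names genes among the 3 with most rows or with rows of 1 class only, and a few others for their known role. These naming rules were set with the data in hand, and the members, motifs and gene lists were chosen with earlier results of these data known. Overlaps were found with bedtools 2.31.1 and intervals with Python 3.11.15. The functions for motif search, row matching and overlap were tested on simulated data.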

Additional observations from a re-analysis of the deposited data

How the results depend on the processing

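No paired analysis was possible because there was 1 list per construct and the rows carry no replicate number, and leaving out single replicates was not possible either. Every setting named kept the order of the 4 classes in core frequency, with FOXA1nhaa-only rows lowest and Nonspecific_FOX rows highest. In a central window of 100 bp the core was in 9.66% of shared, 5.55% of FOXA1nhaa-only, 12.4% of FOXA1-list and 15.5% of Nonspecific_FOX rows. With the most frequent prefix alone the shared value was 16.7% and the shared median fold 5.98. In the top 50% of Nonspecific_FOX rows by fold it was 28.2%. Leaving out repeat windows, an alternative chosen after seeing the data, gave 27.7% for Nonspecific_FOX rows and, with the most frequent prefix, 16.9% for shared rows. The RUNX ratio of FOXA1nhaa-only rows, 1.00, crossed 1 in the 100 bp window, at 1.03, and 5 of the 10 other motifs then exceeded 1.2 times the tiles in FOXA1-list rows. The cause was not tested. The median GC of FOXA1-list rows was 32% in that window and around row midpoints. Their median fold was 6.36 with the summit inside the row and 6.60 for rows at least 200 bp wide. Of the top 50% of each list by q-value, 18892 rows were in the top 50% of both lists, while 33904 FOXA1nhaa rows and 16709 FOXA1rraa rows were in that of their own list only, some of which the other list holds lower down. Within 2500 bp of a transcription start lay 20.97% of shared, 18.0% of FOXA1nhaa-only, 18.8% of FOXA1-list and 14.8% of Nonspecific_FOX rows, and within 1 kb of a start of a protein-coding gene 6.69%, 5.34%, 5.72% and 3.54%. With an overlap of 50% of the shorter row, or with centres within 200 bp, 90.0% or 78.5% of shared and 32.8% or 30.2% of FOXA1nhaa-only rows met FOXA1. For FOXA1dbd the values were 28.6% or 26.4% of shared and 4.55% or 4.32% of FOXA1nhaa-only rows, and 20.3% of FOXA1-list rows by centres. For HNF4A they were 1.65% or 1.51% of shared, 1.01% or 1.02% of FOXA1nhaa-only and 1.09% or 1.07% of FOXA1-list rows, and 0.817% of Nonspecific_FOX rows by half-row overlap. With a flank of 50 kb, 11238 genes had a FOXA1-list row and 5330 a Nonspecific_FOX row. The lists give no read counts, so nothing can be said of rows missed for lack of depth.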
